A study of Mus musculus with 10 samples.

Results

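The genes described here are 34 transcripts typical of the cerebellum, mainly of its granule and Purkinje cells, measured in brains of mice with and without the transporter gene Abcc5. They were chosen by their low level in knockout replicate 3 in these same libraries, and were found by symbol in a table of 25050 genes. They took 35 rows there, because Cbln1 is entered as 2 Ensembl genes that overlap on chromosome 8 (ENSMUSG00000031654 and ENSMUSG00000090275). The libraries came from 5 wildtype (Abcc5+/+) and 5 Abcc5 knockout (Abcc5-/-) brains on the FVB/NJ strain background, each labelled as whole brain, frozen on dry ice after carbon dioxide asphyxiation, and they were made from polyadenylated RNA. No transgene, Cre driver or pooling is named, and the age and sex of the mice and the design of the knockout allele are not given in the sources used here. Nothing in the labels says which libraries share a litter or a preparation, so the p-values measure the spread between these libraries.

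Granule cells are the small excitatory neurons that fill the inner layer of the cerebellar cortex, and their axons, the parallel fibres, excite the Purkinje cells, whose inhibitory axons are the only output of that cortex. Basket, stellate and Golgi interneurons inhibit both, and Bergmann glia ensheathe the Purkinje dendrites. Granule cells are very numerous, so in RNA of a whole mouse brain transcripts made almost only by them stand for the cerebellum, while other genes of the list are shared with the midbrain, medulla, olfactory bulb, cortex or hippocampus.

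Depth ran from 7731294 to 23588335 counts per library, with 3 deeper libraries (wildtype replicate 1 and knockout replicates 2 and 4). Levels are in CPM, each gene's count set against the total of its library and scaled by the TMM method. Such a level is a share, so in bulk RNA fewer cells of a type and less RNA per cell cannot be told apart. Abcc5 itself lay between 298.6 and 325 CPM in the wildtypes and between 210.4 and 226 CPM in the 5 knockouts, with knockout replicate 3 at 221 CPM. Knockout replicate 3 stood apart from the other 9 libraries on the first principal component, which held 31.0% of the variance.

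In knockout replicate 3 some members, such as Cbln3, Fat2 and Pcp2, were nearly missing, while others, such as Calb1 and Itpr1, kept 48.7% and 53.1% of their level. All 35 rows were lower there than in each of the other 9 libraries, against 19.2% of the 14747 tested genes. These values chose the members and are given as a description, with no test. The median member stood at 12.9% of the mean of the other 9 libraries, or at 16.0% with the row without counts set to its floor of 3 counts, and the median over all tested genes was 99.7%. Below 10% of that mean were 14 rows, of which 9 had an exact Poisson interval (95%, counting error only) wholly under 10%, and 0.292% of all tested genes were as low. Between 10% and 50% were 19 rows, and above 50% were 2, where 2.26% of all tested genes lay under 50%. By known role, the median was 23.3% for 13 granule cell rows, 21.9% for 8 Purkinje cell genes and 3.18% for 6 genes without a settled role in the cerebellum. Some of these roles were assigned after the values were seen, so the medians describe the list and do not compare cell types.

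**Figure D1:**
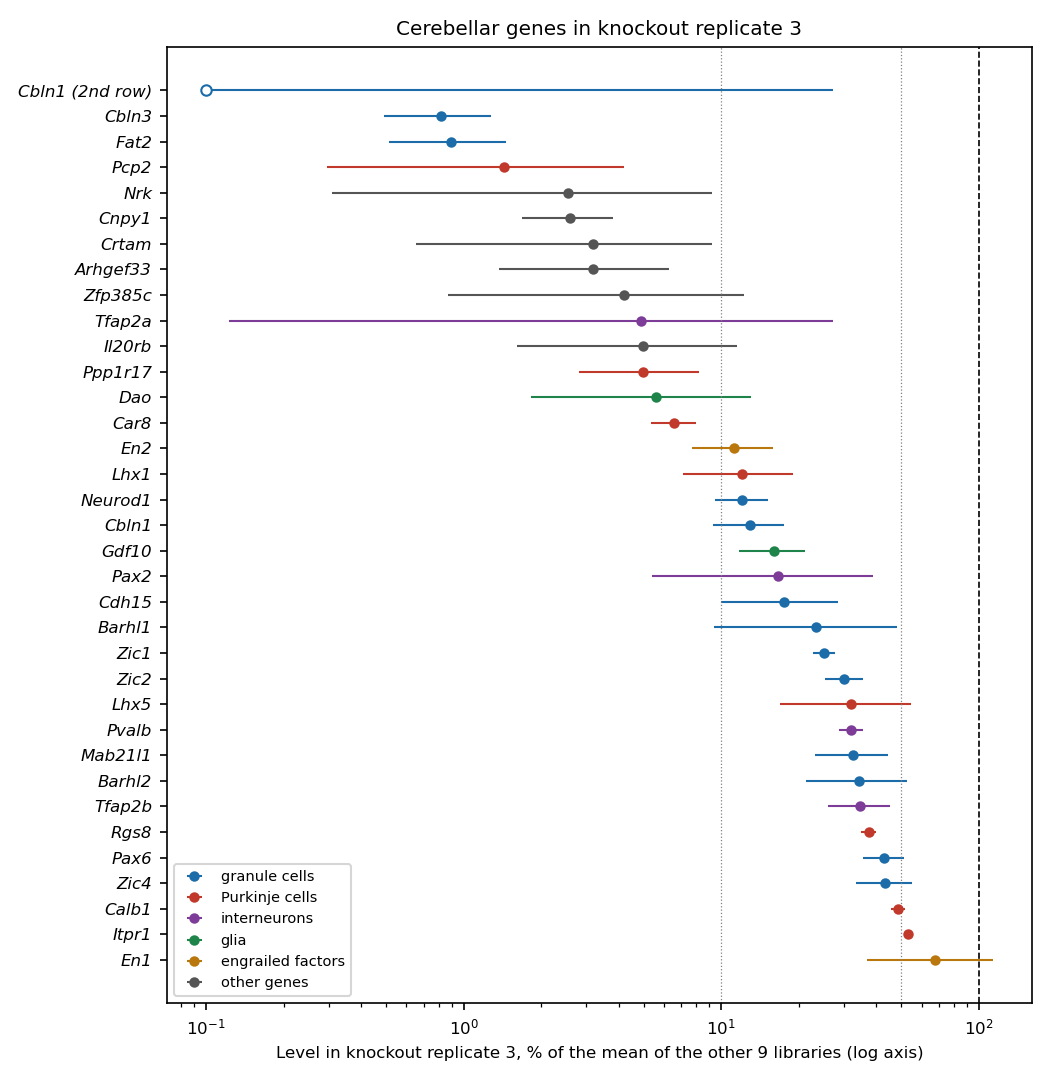
Level of each of the 35 rows in knockout replicate 3 as a percent of the mean of the other 9 libraries, on a log axis, coloured by the cell type each gene is known for. Bars are exact Poisson intervals of the single count, the open circle marks the row with 0 counts, drawn at the left edge, and dotted lines mark 10% and 50%. Levels run from under 1% for Cbln3 and Fat2 to 67.5% for En1.

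Among granule cell genes, Cbln3, a cerebellin secreted with its partner Cbln1 at parallel fibre synapses, had the lowest share. Its level was 278, 271, 282, 287 and 276 CPM in wildtype replicates 1 to 5, 350.4, 329, 353 and 330.4 CPM in knockout replicates 1, 2, 4 and 5, and 2.50 CPM in knockout replicate 3. That last value was 0.817% of the mean of the others (0.492% to 1.28%). Fat2, an atypical cadherin of parallel fibres, was at 211, 212, 208, 237 and 226 CPM in the wildtypes, 288, 269, 240.1 and 222 CPM in the other knockouts and 2.11 CPM in knockout replicate 3, or 0.897% (0.513% to 1.46%). Both genes thus kept about the same small share in that library, and their counting intervals overlapped. Cbln1, which bridges parallel fibres to the receptor GluD2 on Purkinje dendrites, kept 12.9% (9.33% to 17.5%) in its main row. Its level was 49.3, 36.5, 33.0, 35.01 and 33.2 CPM in the wildtypes, 47.0, 55.2, 55.2 and 40.1 CPM in the other knockouts and 5.53 CPM in knockout replicate 3. The second Cbln1 row had 0 counts there, at least 4.53-fold below the mean of the others against a floor of 3 counts in that library. How reads shared by both Cbln1 entries were counted is not given, so either level may be too low.

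The transcription factors of granule cells and their precursors kept larger shares than Cbln3. Neurod1, a bHLH factor of granule cell differentiation, was at 68.2 to 88.7 CPM in the other 9 libraries and at 9.88 CPM in knockout replicate 3, or 12.1% (9.50% to 15.1%). Pax6, a paired-box factor also made in the olfactory bulb, kept 43.0% (35.6% to 51.4%). The zinc finger genes Zic1, Zic2 and Zic4, active in the granule lineage and in the septum and olfactory bulb, kept 25.1%, 30.1% and 43.3%. Zic1 and Zic4 overlap on opposite strands by 3398 bases in the deposited positions, and the library kit does not mark strand, so their reads cannot be fully told apart. Neurod1 overlaps Cerkl (mean 3.46 CPM) by 4231 bases on the same strand. Pax6 overlaps Elp4 (mean 7.46 CPM) by 5841 bases on the opposite strand, and the same limit holds for both pairs. The homeobox genes Barhl1 and Barhl2 kept 23.3% (9.39% to 48.1%) and 34.4% (21.3% to 52.5%). Mab21l1, whose gene lies within the positions of Nbea on the opposite strand, kept 32.5%, and Cdh15, a classical cadherin known from muscle and granule cells, kept 17.5% (10.0% to 28.5%).

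Purkinje cell genes covered almost the whole range. Pcp2, a regulator of G-protein signalling in Purkinje cells, was at 28.2, 27.0, 24.1, 23.1 and 26.2 CPM in the wildtypes, 26.2, 32.5, 32.8 and 27.5 CPM in the other knockouts and 0.395 CPM in knockout replicate 3, which rests on 3 counts. The share was 1.44% (0.296% to 4.20%). Ppp1r17, a substrate of cGMP-dependent kinase, kept 4.99% (2.79% to 8.24%). Car8, a carbonic anhydrase relative without enzyme activity that binds the receptor Itpr1, was at 184 to 225 CPM in the other 9 libraries and at 13.2 CPM in knockout replicate 3, or 6.55% (5.33% to 7.97%). The LIM-homeobox genes Lhx1 and Lhx5, which specify Purkinje cells and several other neuron classes, kept 12.03% and 31.8% (17.0% to 54.4%). Rgs8, a GTPase activator, kept 37.3%, and Calb1, a calcium buffer also made in hippocampus and cortex, kept 48.7% (45.7% to 51.9%). Itpr1, the inositol trisphosphate receptor of the endoplasmic reticulum, was at 1269 to 1426 CPM in the other 9 libraries and at 716 CPM in knockout replicate 3, or 53.1% (51.7% to 54.5%). Car8 and Itpr1, whose proteins bind each other, thus differed in the share that remained by more than their counting intervals.

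Among interneuron genes, Pvalb, the parvalbumin of basket and stellate cells, Purkinje cells and cortical interneurons, kept 32.0% (28.6% to 35.6%). The AP-2 factors Tfap2a and Tfap2b kept 4.87% and 34.7%, although the first rests on 1 count (0.123% to 27.1%). Pax2, a factor of immature inhibitory interneurons, kept 16.6% on 5 counts (5.39% to 38.8%). Of the glial genes, Gdf10, a growth factor of Bergmann glia, kept 16.0% (11.7% to 21.2%), and Dao, the D-amino acid oxidase of hindbrain astrocytes, kept 5.60% on 5 counts (1.82% to 13.1%). The engrailed genes pattern the midbrain and hindbrain, and here En2 kept 11.3% (7.70% to 15.9%) while En1 kept 67.5%. The interval of En1, 36.9% to 113%, was the only interval of the 35 that reached 100%.

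The 6 genes of the list without a settled role in the cerebellum all lay below 5% in that library. Cnpy1, a saposin-like protein linked to FGF signalling in zebrafish, was at 122 to 148 CPM in the other 9 libraries and at 3.42 CPM there, or 2.58% (1.69% to 3.79%). Nrk, a kinase, kept 2.54% on 2 counts (0.308% to 9.18%), and Crtam, an immunoglobulin-family adhesion molecule, kept 3.17% on 3 counts (0.653% to 9.25%). Arhgef33, a guanine nucleotide exchange factor by its family, kept 3.18% (1.37% to 6.27%). Zfp385c, a zinc finger gene, kept 4.20% on 3 counts (0.866% to 12.3%), and the cytokine receptor subunit gene Il20rb kept 4.95% on 5 counts (1.61% to 11.6%).

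**Figure D2:**
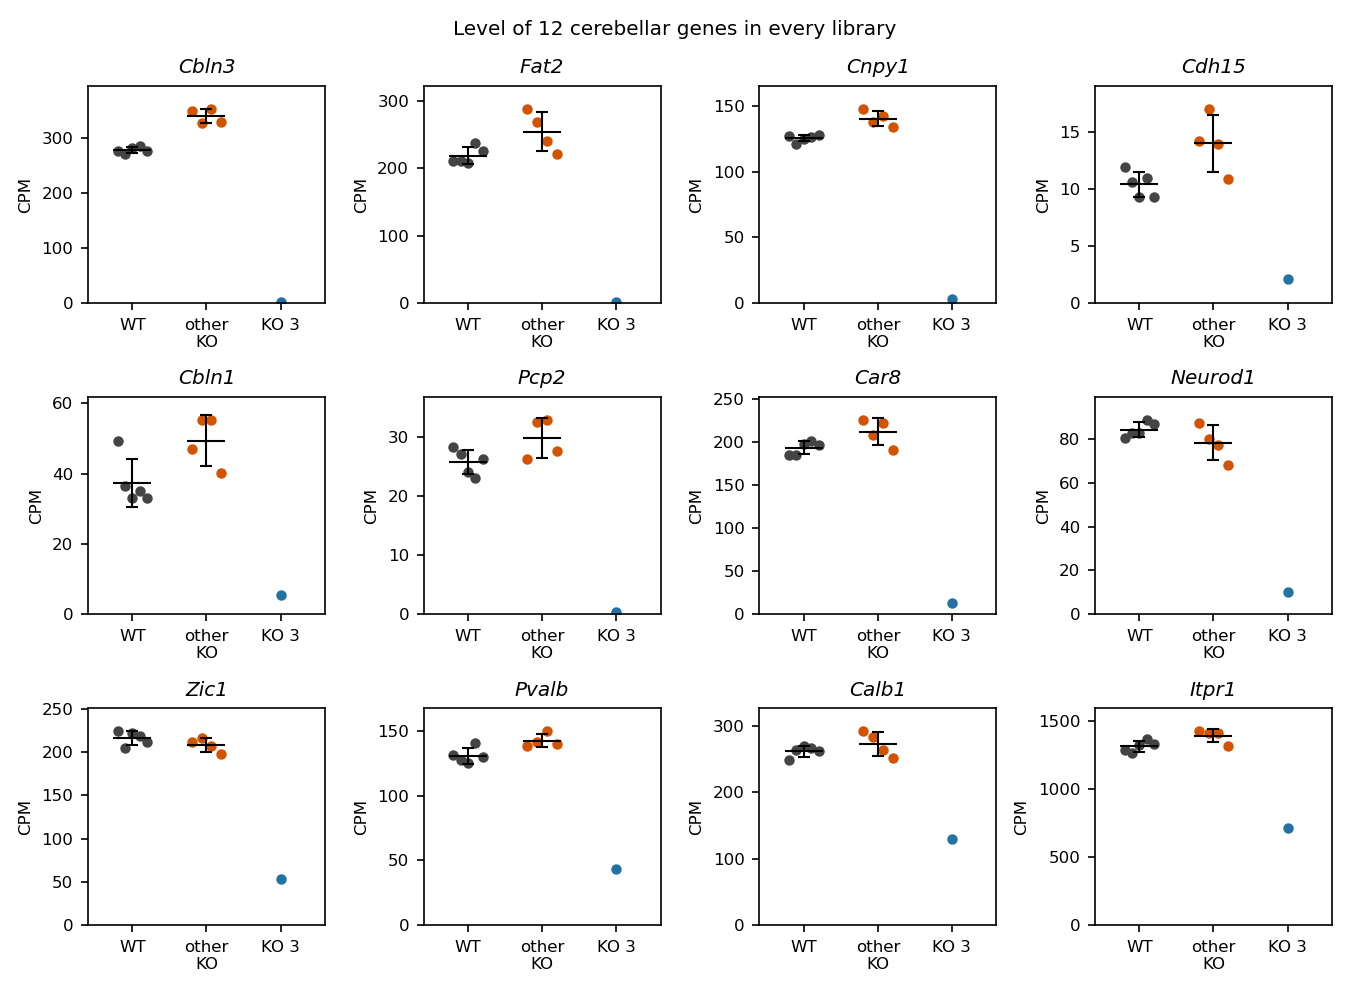
Level in CPM of 12 of the genes in every library, with 5 wildtypes (WT), 4 other knockouts and knockout replicate 3 (KO 3) as points, and the mean and SD of the first 2 groups as bars; every axis starts at 0. Knockout replicate 3 lies lowest in all 12 panels, from near 0 for Cbln3 to 716 CPM for Itpr1, and Cbln3 and Cnpy1 separate the other knockouts from the wildtypes.

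Sequence before a RefSeq start is shown for Cbln3, Fat2 and Pcp2, the genes named above with the smallest shares left in knockout replicate 3. Whether transcription begins at these starts in the brain was not tested. The Fat2 window may lie within the gene and not before its first exon. The 250 bases before the start are taken from RefSeq, build GRCm38.p6, minus strand, 5′ to 3′, where the table held 24 of the 34 symbols. Capitals mark the E-box CANNTG, which bHLH factors such as Neurod1 bind, and AGGTCA, which ROR receptors bind, on either strand. Cbln3 lies at chr14:55884257-55884506, Fat2 at chr11:55312258-55312507, and Pcp2, for the first listed of its 4 starts, at chr8:3625548-3625797.
Cbln3: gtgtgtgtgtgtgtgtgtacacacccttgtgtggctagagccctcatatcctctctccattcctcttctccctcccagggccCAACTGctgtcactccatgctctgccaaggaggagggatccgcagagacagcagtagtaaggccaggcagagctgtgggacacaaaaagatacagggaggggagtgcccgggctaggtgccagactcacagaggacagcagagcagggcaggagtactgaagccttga
Fat2: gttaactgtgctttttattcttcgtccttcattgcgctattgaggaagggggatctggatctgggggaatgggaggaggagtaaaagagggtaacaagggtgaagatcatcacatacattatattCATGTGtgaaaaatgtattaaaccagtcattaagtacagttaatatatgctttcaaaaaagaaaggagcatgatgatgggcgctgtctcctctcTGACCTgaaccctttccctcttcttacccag
Pcp2: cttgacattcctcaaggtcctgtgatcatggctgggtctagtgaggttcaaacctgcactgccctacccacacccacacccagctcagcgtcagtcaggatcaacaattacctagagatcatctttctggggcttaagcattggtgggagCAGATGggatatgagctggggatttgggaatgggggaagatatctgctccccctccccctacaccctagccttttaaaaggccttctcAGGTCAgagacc
The E-box was found in 28 of 40 member windows and in 66.2% of all 32851 windows of this length. AGGTCA was found in 10 of the 40 and in 14.0% of all, and the 40 windows belong to 24 genes, several with overlapping windows. A match is a run of letters and not a known site.

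The shares of other brain regions in knockout replicate 3 were read from lists of genes outside the members. Among genes of at least 1 CPM in the other 9 libraries, medians were 134% for cerebral cortex and hippocampus (15 genes), 131% for striatum (9 genes) and 141% for hypothalamus and thalamus (11 genes). Camk2a, a kinase of forebrain excitatory neurons, stood at 134%, and Pde10a, a phosphodiesterase of the striatum, at 122%. Hox genes, which mark the hindbrain behind the pons and the spinal cord, were as low as the cerebellar members. Of 15 Hox genes, 13 had 0 counts in knockout replicate 3, and their counts summed to 2, against 66 to 604 in each of the other 9 libraries. Slc6a5, the glycine transporter of medullary and Golgi neurons, kept 6.82% (4.75% to 9.49%), and Glra1, a glycine receptor subunit, kept 30.3%. The serotonin genes Tph2 and Slc6a4 of the raphe stood at 96.6% and 98.5%, and the noradrenaline genes Dbh and Slc6a2 at 113% and 106%. Lhx1, Lhx5, Barhl1, Tfap2b and Pax2 are made both in the cerebellum and in the caudal hindbrain, whose parts in these levels cannot be told apart.

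**Figure D3:**
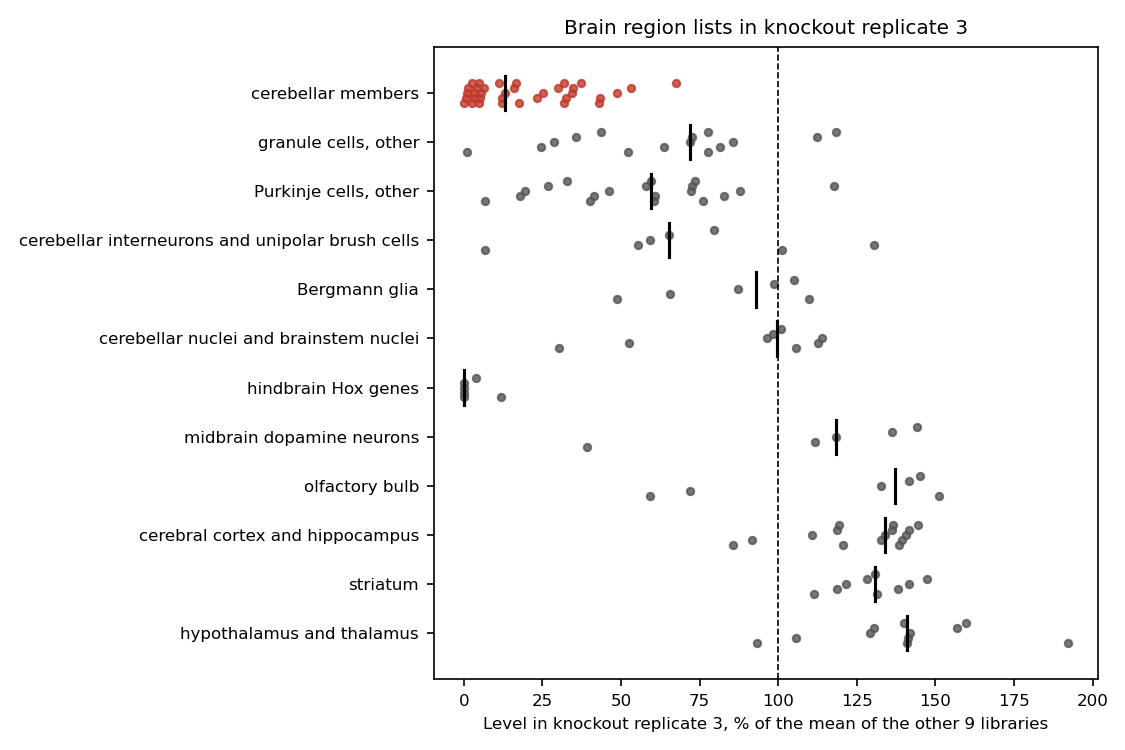
Level of single genes (points) in knockout replicate 3 as a percent of the mean of the other 9 libraries, for the cerebellar members and for lists of other regions, with list medians as black bars; genes of other lists had at least 1 CPM. Cerebellar members and Hox genes lie far below 100%, and cortical, striatal and hypothalamic genes mostly lie above it.

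Lists of general cell types stayed closer to the level of the other libraries than the cerebellar members did. Median shares in knockout replicate 3 were 102% for neurons, 88.0% for astrocytes, 90.6% for oligodendrocytes, 125% for microglia, 92.0% for choroid plexus, 69.0% for meninges and fibroblasts and 97.2% for blood. Including genes under 1 CPM, medians were 120.1% for the midbrain dopamine list, 133% for the olfactory bulb list and 98.5% for the list of cerebellar and brainstem nuclei. With only genes of at least 1 CPM they were 118%, 137% and 99.7%. The nuclei list holds the serotonin and noradrenaline genes named above, so its median does not stand for the cerebellar nuclei. Shares in it ran from 0% to 114%, with 7 of its 9 genes over 50%. Genes outside the members with the lowest shares, among those of at least 1 CPM in the other 9 libraries, were Hoxb6, Hoxa5, Hoxc4, Hoxd3, Slc5a1, Tlx3, Ccdc69, Pkp3, Gm5083 and Iltifb. Each had 0 counts there and lay at least 2.68-fold (Hoxb6) to 6.89-fold (Hoxa5) lower by the floor of 3 counts.

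With knockout replicate 3 set aside, the remaining question was whether cerebellar genes differed between the 4 other knockouts and the 5 wildtypes. Most did not pass the test, and those that did were slightly higher in the knockouts. By edgeR's quasi-likelihood test over 14747 genes, 3 of the 35 rows rose, Cbln3, Cdh15 and Cnpy1, and none fell, at an adjusted p under 0.05. Over all tested genes 93 rose and 248 fell, which is 0.631% and 1.68%, and 2.31% in all. The other 32 rows did not pass. At an unadjusted p under 0.05, and with the 3 called genes included, 14 of the 35 rows were higher and 1 was lower, against 8.69% and 9.2% of all genes. The log2 fold change (knockout over wildtype) lay above 0 in 29 of the 35 rows and in 52.2% of all genes, and its median was 0.10 for the rows and 0.0065 for all genes. The members share cells and libraries, so their counts are not independent of each other.

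Cbln3 was higher in each of the 4 other knockouts than in each wildtype, with 341 ± 13.0 CPM (SD, n = 4) against 279 ± 5.89 CPM (SD, n = 5). On the log2 scale they differed by 0.29 (SE 0.039), an excess of 22.2% in the knockouts (edgeR adjusted p 0.000299). The difference of the mean levels was 0.29 on the log2 scale both among the deeper and among the shallower libraries. With each library left out in turn its log2 fold change stayed between 0.269 and 0.306, with edgeR adjusted p-values from 0.000224 to 0.00224. Cbln3 was the only member that passed in each of these fits.

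Cnpy1 was at 127, 122, 125, 127 and 128 CPM in the wildtypes and at 148, 138, 143 and 134 CPM in the other knockouts, without overlap. The log2 fold change was 0.16 (SE 0.042, edgeR adjusted p 0.0481). Cdh15 was at 11.9, 10.6, 9.27, 10.97 and 9.32 CPM in the wildtypes and at 14.2, 17.0, 14.0 and 10.8 CPM in the other knockouts, where knockout replicate 5 fell below the highest wildtype. The log2 fold change was 0.44 (SE 0.11, edgeR adjusted p 0.0419). Neither gene passed once any single library among wildtype replicates 2, 3, 4 and 5 and knockout replicates 1, 2 and 4 was set aside. The edgeR adjusted p then ran from 0.0642 to 0.214 for Cdh15 and from 0.0936 to 0.144 for Cnpy1. In the 6 shallower libraries alone neither passed (edgeR adjusted p 0.375 and 0.159).

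Several members had values near these without passing. Cbln1 had the second largest log2 fold change of the list, 0.40 (SE 0.107, edgeR adjusted p 0.0579), and its wildtype replicate 1, at 49.3 CPM, lay within the range of the other knockouts. Without that library the log2 fold change was 0.55, with an edgeR adjusted p of 0.000497, and without knockout replicate 5 it was 0.472 (0.0178). Fat2 had 0.22 (SE 0.062, edgeR adjusted p 0.0712), and 0.278 (0.0144) without knockout replicate 5. Arhgef33 was at 30.1 to 32.7 CPM in the wildtypes and at 33.3 to 38.2 CPM in the other knockouts, without overlap, and differed by 0.21 on the log2 scale (edgeR adjusted p 0.0646). Il20rb had 0.30 (edgeR adjusted p 0.0986) and Pcp2 had 0.23 (edgeR adjusted p 0.125). Without wildtype replicate 1 the edgeR adjusted p of Arhgef33, Il20rb and Pcp2 was 0.027, 0.0118 and 0.0385. Over all genes, 1013 of 14545 passed without that library and 494 of 14914 without knockout replicate 5, against 341 of 14747 with both. Leaving out other libraries raised the edgeR adjusted p to at most 0.216 for Cbln1, 0.231 for Fat2 and 0.253 for Arhgef33. For Il20rb and Pcp2 the highest values were 0.265 and 0.383. Groups did not overlap in 3 rows with higher knockouts (Cbln3, Cnpy1 and Arhgef33), where 2.68% of all genes did so, and in 1 row with lower knockouts (Tfap2b), against 3.88%.

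The transcription factor genes of the list had values on both sides of 0, and none passed. Zic1, Zic2 and Zic4 had log2 fold changes of -0.055, 0.052 and 0.032, Pax6 had -0.026, Neurod1 had -0.103 and Lhx1 had -0.036, with edgeR adjusted p-values from 0.368 to 0.873. Neurod1 was at 80.5, 82.9, 83.1, 88.7 and 87.0 CPM in the wildtypes and at 87.6, 80.1, 77.5 and 68.2 CPM in the other knockouts, where knockout replicate 5 lay below every wildtype. Lhx5, Pax2 and Barhl2 had 0.32 (SE 0.114), 0.24 (SE 0.164) and 0.23 (SE 0.143), with edgeR adjusted p-values of 0.144, 0.453 and 0.413. Barhl1 had 0.069 and Tfap2b had -0.101 (edgeR adjusted p 0.85 and 0.415). Tfap2a had the lowest value, -0.41 (SE 0.19, edgeR adjusted p 0.266), at levels of 1.46 to 4.12 CPM in these 9 libraries. The calcium-handling genes of Purkinje cells had small positive values, 0.085 for Itpr1, 0.060 for Calb1, 0.123 for Pvalb and 0.14 for Car8, with edgeR adjusted p-values of 0.25, 0.52, 0.16 and 0.15. Gdf10 and Dao had 0.19 and 0.17, and En1 and En2 had 0.0088 and 0.097, and none of these 4 passed.

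The 14 rows below 10% in knockout replicate 3 had a median log2 fold change of 0.19 between the other knockouts and wildtype, and the 19 rows from 10% to 50% had 0.061. The summed level of the first group ran from 943 to 1004 CPM in the wildtypes and from 1036 to 1181 CPM in the other knockouts, without overlap, and was 27.1 CPM in knockout replicate 3. Cbln3 and Fat2 make up much of that sum. Of the 14 rows 3 separated the groups by themselves, and how often sums of other genes do so was not counted. For the 19 rows the sums were 1295 to 1366 CPM and 1284 to 1417 CPM, which overlap, and 440.5 CPM in knockout replicate 3. The spread of the members over the 9 libraries was close to that of other genes, with a median coefficient of variation of 8.43% for members of at least 5 CPM and 7.38% for all such genes.

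Another 47 cerebellar genes outside the members were read from 4 lists for granule cells, Purkinje cells, interneurons with unipolar brush cells, and Bergmann glia. None rose and 2 fell by edgeR between the other knockouts and wildtype, where 0.631% and 1.68% of all tested genes did. The log2 fold change lay above 0 in 33 of the 47 genes and in 52.2% of all genes. Its median was 0.037 for the 47 genes and 0.0065 for all genes. By list the medians were 0.030 for 15 granule cell genes, 0.10 for 19 Purkinje cell genes, -0.0088 for 7 interneuron and unipolar brush cell genes and -0.015 for 6 Bergmann glia genes. In knockout replicate 3 the median of the 47 genes was 65.2% of the mean of the other 9 libraries, where 3 genes lay under 10%, 12 from 10% to 50% and 32 over 50%. The list medians there were 71.8% for granule cells, 59.6% for Purkinje cells, 65.2% for interneurons with unipolar brush cells and 93.0% for Bergmann glia. The members had been chosen for their low level and these genes had not, and their shares reached 119% for the glutamate loader Slc17a7 and 118% for the transcription factor gene Foxp2, both also made in the forebrain. Gabra6, the GABA receptor subunit of granule cells, had the lowest share of the 47 and kept 0.965% (0.499% to 1.69%) in knockout replicate 3, close to Cbln3. Its level was 151, 149.7, 172, 176 and 169 CPM in the wildtypes and 180.4, 151, 167 and 157 CPM in the other knockouts, with a log2 fold change of 0.0043 (SE 0.059, edgeR adjusted p 0.983). The groups overlapped for Gabra6, and whether its difference departs from that of Cbln3 was not tested. The genes that fell were Eomes, a factor of unipolar brush cells and of olfactory bulb projection neurons, and Fabp7, a fatty acid binding protein of radial and Bergmann glia. Eomes had 16.0 ± 1.44 CPM in the wildtypes and 7.06 ± 3.95 CPM in the 4 other knockouts, a log2 difference of -1.29 (edgeR adjusted p 0.00167), and 7.11 CPM in knockout replicate 3. Fabp7 had 46.4 ± 4.31 and 33.9 ± 3.34 CPM, a log2 difference of -0.46 (edgeR adjusted p 0.00165), and 44.8 CPM in knockout replicate 3, within the wildtype range. Eomes also stands in the list for the olfactory bulb, whose median log2 fold change in the other knockouts was -0.63, with 6 of 7 genes below 0 and 3 of them at an unadjusted p under 0.05. Over all 14747 tested genes, 7055 lay below 0 and 9.2% were lower at that unadjusted p. Of those 7 genes Eomes alone passed by edgeR, and the part of the olfactory bulb in its level was not tested. The most abundant genes of these lists did not pass, among them Slc17a7 with 0.030, the aldolase gene Aldoc with 0.15, the glutamate transporter Slc1a3 with 0.086 and the calretinin gene Calb2 with 0.085.

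**Figure D4:**
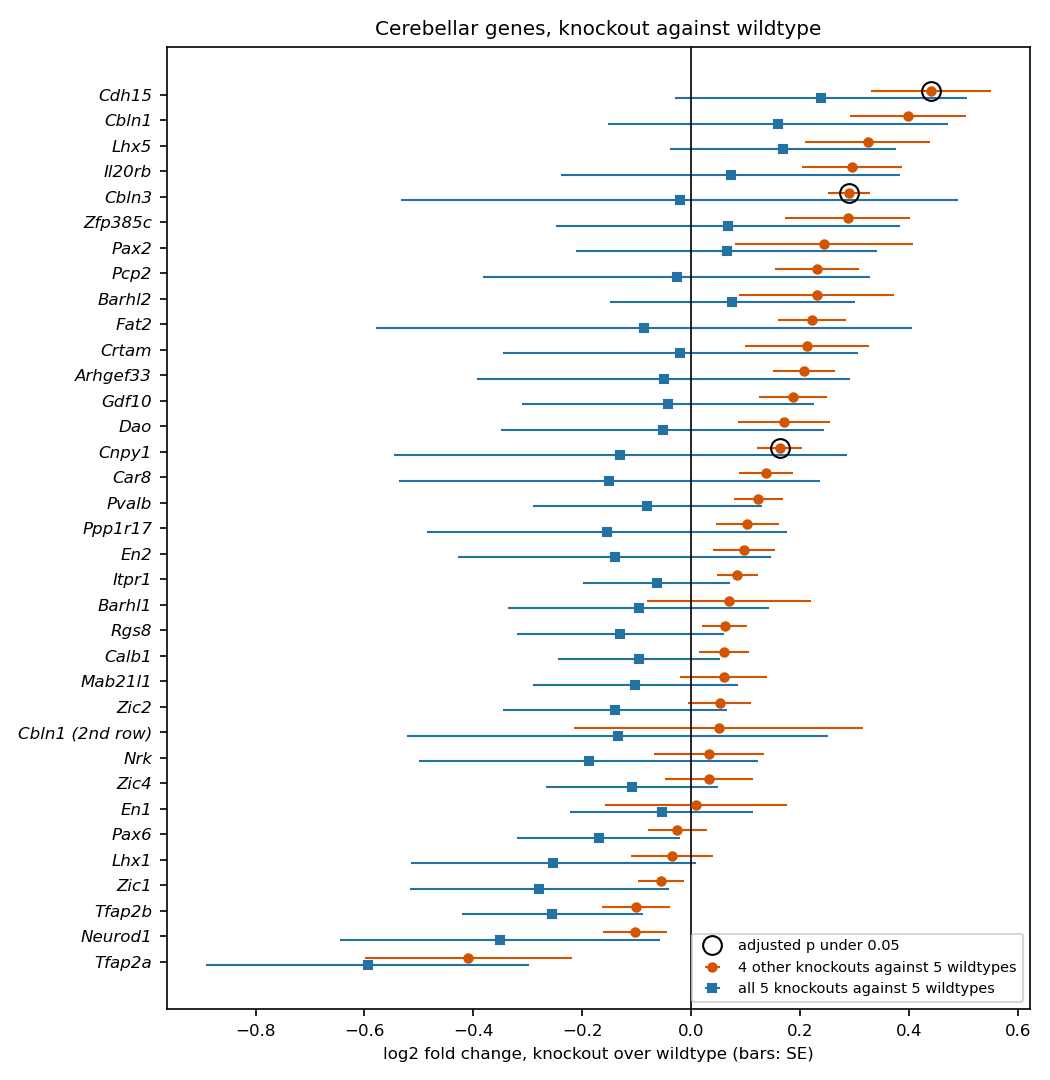
Log2 fold change of each row, knockout over wildtype, with its SE, from the 4 other knockouts against 5 wildtypes (circles) and from all 5 knockouts (squares); rings mark an adjusted p under 0.05 in the first fit. Values centre above 0 in the first fit and below 0 in the second, where SEs are wider and no row passes.

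When knockout replicate 3 was kept in the fit, the direction of most members turned. The members were chosen by their low level in that library, so a downward shift is built into this fit and is no independent result. In all 10 libraries 28 of the 35 rows lay below 0 and the median was -0.096. Of all 14526 genes 7036 lay below 0, with a median of 0.0042. None of the 35 rows passed by edgeR, where 1.18% of all genes did. Cbln3 had a log2 fold change of -0.0215 with an SE of 0.51 (edgeR adjusted p 0.994), against 0.29 with an SE of 0.039 without that library. Fat2 went from 0.22 to -0.086, Car8 from 0.14 to -0.15 and Neurod1 from -0.103 to -0.35. In the authors' deposited table, whose comparison covers all 10 libraries, no member passed, and the adjusted p-values of the 35 rows ran from 0.511 to 0.974. How many of all genes passed there was not counted, so this count of members has no background.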

How the data were processed

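Libraries were made from polyadenylated RNA with a TruSeq v2 kit, per the labels' protocols. The deposited table holds counts per Ensembl gene and library, and the submitters' processing notes name TopHat2 2.0.6, HTSeq, edgeR and limma; the genome build is not given in the sources used here. The authors' deposited adjusted p-value per gene was read where intact. A second set of 10 columns per library held values with misplaced decimal points and was not used. Positions of genes are those of the table.

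The test used edgeR 4.0.16 in R 4.3.3. Knockout replicate 3 was left out, and counts of the 14747 genes (of 25050) that filterByExpr retained, at its minimum count of 10 and total of 15, were scaled by TMM and tested by quasi-likelihood with genotype as the only term and Benjamini-Hochberg adjustment over all tested genes; the SE of a log2 fold change came from the F statistic. Levels are CPM scaled by TMM over all 10 libraries. Log2 CPM used a prior count of 2. Replicates differed by more than counting error (chi-square per degree of freedom 1.29 to 5.70). Alternatives were DESeq2 1.42.0, limma-voom (limma 3.58.1), other scaling and filters, a replicate block, depth class, and leaving out each library.

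The members and lists were chosen with earlier results of these data known, and the cell roles of some members were assigned after their values were seen. Genes named by rule were all members, Abcc5, the 10 lowest genes in knockout replicate 3 and the 5 genes most like Cbln3. From each list the rule took genes that were called and the 2 most abundant. Only list genes that bear on a cerebellar result are given. Glra1, Tph2, Slc6a4, Dbh, Slc6a2 and Gabra6 were added after their values were seen, and Slc6a5 and Foxp2 were also named outside the rule. On counts simulated for the 9 libraries over 14636 genes, the test called 87 of 100 genes with a 1.5-fold change, 95 of 100 with a 2-fold change and 17 of 14438 without any. Smaller changes were not simulated. All members changed by less than 1.5-fold in the 9 libraries, the most being Cdh15 with an excess of 35.7%.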

Additional observations from a re-analysis of the deposited data

Results flagged for a closer look

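In 24 of the 35 rows knockout replicate 3 lay far from the other 4 knockouts, by a gap large against the range of the group. The members were chosen by their low level in knockout replicate 3, so this is a description and no test. How many of all genes have such a gap there was not counted. The mean log2 CPM over the members, from library totals without TMM scaling, was 2.03 in that library, against 4.86 to 5.04 in the other knockouts. Among the 5 wildtypes and the 4 other knockouts, 70 groups were examined, of which chance marks about 1 in 20, and 6 held a library far from the rest. Knockout replicate 5 was low for Zfp385c at 8.16 CPM (others 11.2), for Itpr1 at 1320 CPM (others 1410 to 1430) and for En2 at 34.7 CPM (others 39.7 to 40.7). Knockout replicate 2 was high for Zic4 at 23.4 CPM (others 18.7 to 19.5). Wildtype replicate 1 was high for Cbln1 at 49.3 CPM (others 33.0 to 36.5), and wildtype replicate 2 was low for Barhl1 at 3.30 CPM (others 3.99 to 4.27).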

How the results depend on the processing

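Cbln3 kept its direction and its call in all alternatives except the fit with knockout replicate 3. In that fit 0 members and 171 of all genes passed, and the medians were -0.0961 for the members and -0.04 for the other cerebellar genes. The log2 fold changes that turned negative there were -0.154 for Ppp1r17, -0.0268 for Pcp2, -0.0808 for Pvalb, -0.0427 for Gdf10, -0.0964 for Barhl1, -0.0961 for Calb1, -0.063 for Itpr1, -0.0201 for Crtam, -0.108 for Zic4, -0.14 for En2, -0.0215 for Cbln3, -0.15 for Car8, -0.0523 for Dao, -0.13 for Rgs8, -0.13 for Cnpy1, -0.188 for Nrk, -0.0506 for Arhgef33, -0.0863 for Fat2, -0.103 for Mab21l1, -0.0546 for En1, -0.14 for Zic2 and -0.135 for ENSMUSG00000090275. Members called were 6 without a low-count filter (723 of all genes), 7 at an adjusted p of 0.1 (745) and 1 at 0.01 (88). In the shallower libraries alone 2 members, Cbln1 and Cbln3, and 105 of all 14687 genes were called. With a library left out, 1 to 7 members and 140 to 1013 genes were called, and 1013 came without wildtype replicate 1, 494 without knockout replicate 5. With the replicate block 1 member (Cbln3) and 99 genes were called. The deviations of same-numbered libraries correlated at -0.203 to 0.0631, and not every library correlated best with its own number. Such correlations cannot tell whether same-numbered libraries share a litter or a preparation, which the labels do not give. Log2 fold changes near 0 changed sign: with the block Zic4 (-0.026), Nrk (-0.03) and En1 (-0.0448), with depth class as a term Barhl1 (-0.0458), and in the shallower libraries alone Barhl1 (-0.323), Pax6 (0.00559), Zic4 (-0.0774), Mab21l1 (-0.0124) and En1 (-0.0181). With a library left out, Barhl1 ran from -0.041 to 0.156, En1 from -0.0597 to 0.105, ENSMUSG00000090275 from -0.109 to 0.227, Lhx1 from -0.0873 to 0.00691, Nrk from -0.0179 to 0.0969, Pax6 from -0.0394 to 0.00325 and Zic4 from -0.0662 to 0.0719. The call of Cnpy1 was also lost with RLE size factors (adjusted p 0.0527) and with the block (0.206), and that of Cdh15 with the block (0.107) and with depth class as a term (0.0693). The cause of these changes was not tested. DESeq2 and limma-voom called the same 3 members, with 347 and 367 of all 14747 genes. With depth class as a term Cbln1, Cbln3, Cnpy1 and Fat2 passed, with 408 of all genes. Depth limits the shares in knockout replicate 3 of members with few counts, 5 of which rest on 1 to 3 counts.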

Other observations

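Over the 9 libraries without knockout replicate 3, the genes whose log2 CPM was most like that of Cbln3, among 11867 genes of at least 5 CPM, were Dusp28, Krba1, BC002230, Kptn and Vmac. Their correlation with Cbln3 (Pearson, a description over 9 libraries of both genotypes) ran from 0.957 to 0.976. In knockout replicate 3 these genes stood at 85.4% to 111% of the mean of the other libraries, where Cbln3 stood at 0.817%. They were picked by their likeness to Cbln3, which separates the genotypes, so a difference between genotypes in them is no independent result. Cnpy1 was the member most like Cbln3, at 0.948 and position 10 of the order, while Tfap2b stood at -0.789.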
